A study of Homo sapiens with 12 samples.

Results

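The cytosolic ribosomal protein genes encode the proteins that, together with ribosomal RNA, form the large and small subunits of the ribosome in the cytoplasm. They were taken as the protein-coding entries of the expression table whose GENCODE 29 symbol is RPL or RPS followed by a number and at most a short suffix, or is RPLP0, RPLP1, RPLP2 or RPSA, leaving out the RPS6K kinases and the Y-linked RPS4Y genes. The rule found 85 genes among 58174 entries, of which 57836 carried a symbol. The genes fall into 50 of the large subunit, 3 of its stalk and 32 of the small subunit, and they lie on 21 chromosomes, with 12 on chromosome 19.

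RNA came from HCT116, an established human colorectal carcinoma cell line, exposed to dolastatin 15, a natural product of marine origin that acts on tubulin and keeps microtubules from forming. The study set the drug against solvent to examine its effect on gene expression. At 16 h there were 2 libraries at 20 nM (libraries 1 and 2), 2 at 100 nM (libraries 3 and 4) and 2 with solvent (libraries 5 and 6). At 24 h there were 2 at 20 nM (libraries 7 and 8), 2 at 100 nM (libraries 9 and 10) and 2 with solvent (libraries 11 and 12). Every group, solvent included, was kept at 0.25% DMSO, in which the drug stocks were made, and in medium with 5% serum during treatment after growth in 10%. The treatments were done in duplicate, but the labels do not say whether the duplicates came from separate cultures, so the p-values below measure the spread between these libraries, which may be technical. Values are FPKM (fragments per kilobase of transcript, scaled to the mapped fragments of the library) as deposited, a level per unit of transcript length. Changes are differences of group means of log2(FPKM + 1) from a limma fit of all 12 libraries, and a gene is called when its p-value, adjusted over 13458 tested genes, is below 0.05. In bulk RNA such as this, a change in the number of cells holding an RNA and a change in RNA per cell cannot be told apart.

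Each ribosome holds a single copy of nearly every ribosomal protein, the stalk proteins RPLP1 and RPLP2 being the exception. Their mRNAs are among the most abundant in dividing cells. Most begin with a cytosine followed by an unbroken run of pyrimidines, the TOP (terminal oligopyrimidine) motif, through which the growth-signalling kinase complex mTORC1 and the RNA-binding protein LARP1 control how much they are translated. Cells also use free ribosomal proteins as a stress signal: RPL5 and RPL11, bound to a small ribosomal RNA, can hold back the ubiquitin ligase MDM2.

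RefSeq's table of promoter windows, on build GRCh38.p14, held 68 of the 85 genes, each with 250 bases before the annotated start and 50 bases from it. The start base was C in 48 of the 68 genes (70.6%), against 15.0% of all 27305 promoter windows in the table. A C followed by at least 4 more C or T, read on the transcribed strand only, was present in 43 of the 68 (63.2%), against 4.04% of all windows. The ETS-type core CCGGAA, searched on both strands over the whole window, was found in 37 of the 68 (54.4%), against 17.6% of all windows. The motif AAGATGGC, which resembles the site of the factor YY1, was found on either strand in 7 of the 68 (10.3%), against 3.03% of all windows. The end of CCGGAA can form the start of AAGATGGC, so matches of the pair may overlap, and a match describes the letters only. The starts of 6 genes that have such a run are printed, picked from genes that rose, fell or changed differently between doses below. Other genes of those comparisons lack the run, among them RPL11, RPS27A, RPS28, RPL9, RPL10 and RPL27, so the printed starts are not typical of the genes called. Each line gives 10 bases before the annotated start and 18 from it, 5′ to 3′ on the transcribed strand, with the pyrimidine run at the start in capitals.
RPLP2: tcggcgccttCCTTTTCCTCCCTgtcgc
RPS21: ctagctgcttCCTTTCTCTCTCgcgcgc
RPL35: cgcctacttcCTCTTTCCCTCggagcgg
RPL34: cttttttcttCCTCTTCCggggacgttg
RPL38: aagtctcgttCTTTTTCgtccttttccc
RPL13A: aaacctcctcCTTTTCCaagcggctgcc
These windows lie at chr11:809957-809984 on the plus strand for RPLP2, chr20:62387093-62387120 plus for RPS21, chr9:124861940-124861967 minus for RPL35, chr4:108620566-108620593 plus for RPL34, chr17:74203668-74203695 plus for RPL38 and chr19:49487598-49487625 plus for RPL13A. The run is 13 bases long in RPLP2, 12 in RPS21, 11 in RPL35, 8 in RPL34 and 7 in RPL38 and RPL13A. The longest run among the 68 genes was 19 bases, in RPL39.

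The 85 genes were read at very different levels. Of them, 82 reached 1 FPKM in at least 2 libraries and were tested. RPL10L and RPL39L, paralogs known from the testis, were listed at 0 in all 12 libraries, and RPL3L, a paralog known from heart and skeletal muscle, lay between 0.02 and 0.19 FPKM. The highest mean over 12 libraries was that of the small subunit gene RPS27, at 7730.1 FPKM with a range of 6546 to 8843. RPL37A followed at 5194 FPKM (4581 to 5848), RPS15 at 4875 (4018 to 6375), RPS2 at 4719 (4385 to 5261) and RPS21 at 4423 (3659 to 6182). The lowest of the tested genes were RPS27L at 38.2 FPKM (30.4 to 48.0), RPL26L1 at 128 (104 to 147), RPL7L1 at 139.9 (127 to 156), RPL22 at 288 (230.4 to 345) and RPL36AL at 351 (304 to 394). The highest mean was 202-fold the lowest, and 64 of the 82 means were at least 1000 FPKM. When the 82 genes were ordered by mean level, 77 of the 81 neighbouring pairs had overlapping ranges. The 4 breaks in the order came below RPS27, RPS27A, RPL22 and RPL26L1.

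Together the 85 genes made up 16.7% to 18.8% of the FPKM sum of a library, and 21.4% to 23.3% of the sum without mitochondrially encoded genes. At 16 h the summed level was 163689 and 163362 FPKM at 20 nM, 168051 and 165413 at 100 nM, and 162459 and 158121 with solvent. At 24 h it was 186596 and 177301 FPKM at 20 nM, 183740 and 180702 at 100 nM, and 161573 and 167593 with solvent. In both 24 h drug groups each library lay above both solvent libraries. The group means at 24 h were 181948 ± 6573 at 20 nM, 182221 ± 2148 at 100 nM and 164583 ± 4257 with solvent (SD, n = 2 each), a ratio of 1.11 for either dose. At 16 h the ratio to solvent was 1.02 at 20 nM and 1.04 at 100 nM. As a share of all FPKM the ratio at 24 h was 0.970 at 20 nM and 1.04 at 100 nM, and as a share of the nuclear sum it was 1.05 at either dose, so the direction at 20 nM depended on the denominator. Mitochondrially encoded genes took 23.8% and 25.8% of the FPKM sum in the 20 nM libraries at 24 h, 18.8% and 20.7% at 100 nM and 17.9% and 18.6% with solvent. Within the sum at 24 h, the 32 small subunit genes summed to 82946 ± 1967 FPKM at 20 nM, 80426 ± 1034 at 100 nM and 71981 ± 2102 with solvent, while the 53 large subunit and stalk genes summed to 99003 ± 4605, 101795 ± 1114 and 92603 ± 2155 in the same groups.

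**Figure D1:**
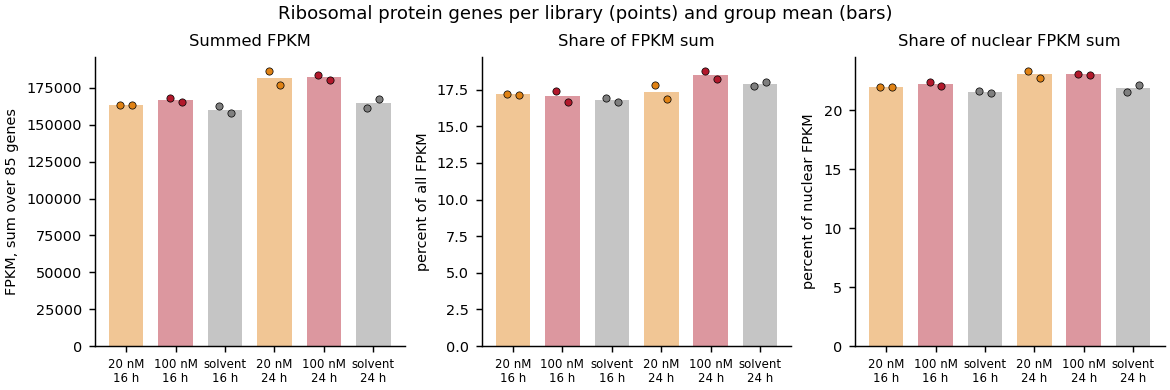
Summed FPKM of the 85 cytosolic ribosomal protein genes (left), their percentage of all FPKM (middle) and of the FPKM of nuclear genes (right) in each group; points are libraries and bars are means of 2 libraries. At 24 h the summed FPKM of both drug groups lies above solvent, while the share of all FPKM at 20 nM, at 17.8% and 16.9%, does not exceed the solvent shares of 17.7% and 18.0% in both libraries.

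After 16 h few members were called. At 20 nM, 8 of 82 rose and 0 fell (9.76% called, against 17.7% of all 13458 genes, 6.78% called higher and 11% called lower). Among them were RPLP2 of the stalk, RPS27 and RPS28 of the small subunit and RPL11, RPL22, RPL37 and RPL38 of the large subunit. At 100 nM, 6 of 82 rose and 0 fell (7.32%, against 23.8% of all genes, 9.16% called higher and 14.7% called lower), among them RPLP2, RPS12, RPS27A, RPL11 and RPL35A. The share of members called was below that of all genes at both doses. The median member changed by 0.06 on the log2 scale at 20 nM and by 0.07 at 100 nM, against -0.02 and -0.03 for all tested genes. Both drug libraries lay above both solvent libraries for 43 of 82 members at 20 nM and 42 at 100 nM, against 27.1% and 26.6% of all genes. Both lay below both solvent libraries for 17 members at 20 nM and 3 at 100 nM, against 36.1% and 36% of all genes.

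RPL38, a large subunit protein whose loss in mice disturbs the patterning of the spine, showed the greatest rise at 20 nM and 16 h. It read 1259 and 1352 FPKM at 20 nM against 1003 and 1049 with solvent, a log2 change of 0.35 ± 0.08 (SE; limma adjusted p = 0.0177), and the groups did not overlap. RPL22, which binds RNA outside the ribosome as well, read 304 and 319 FPKM at 20 nM against 230.4 and 262 with solvent, a change of 0.34 ± 0.09 (SE; adjusted p = 0.0266). RPS28 read 529.9 and 533 FPKM at 20 nM against 401 and 453 with solvent (0.32 ± 0.09, SE; adjusted p = 0.0487). RPL37, another large subunit gene, read 713 and 729 FPKM at 20 nM against 537 and 626 with solvent (0.31 ± 0.08, SE; adjusted p = 0.0344). In all of these both drug libraries were above both solvent libraries. The calls for these 4 genes rested on single libraries: each ended when library 2 or 5 was left out, with adjusted p up to 0.113 for RPL38, 0.161 for RPL22, 0.251 for RPS28 and 0.198 for RPL37 over all the libraries left out in turn.

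At 100 nM and 16 h, RPS12, at the beak of the small subunit, read 1132 and 1041 FPKM at 100 nM against 948 and 907 with solvent (0.23 ± 0.07, SE; limma adjusted p = 0.0357). RPL35A, a large subunit gene mutated in Diamond-Blackfan anaemia, read 1129 and 1086 FPKM at 100 nM against 958 and 1004 with solvent (0.17 ± 0.05, SE; adjusted p = 0.0439). In both genes the drug libraries lay above the solvent libraries. The call for RPS12 ended without library 3, 5, 6, 9, 10, 11 or 12 (adjusted p up to 0.188), and that for RPL35A without library 3, 4, 5, 6, 9, 10, 11 or 12 (up to 0.208).

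After 24 h more members were called than after 16 h, nearly all of them higher in the values as deposited. At 20 nM, 32 of 82 rose and 2 fell (41.5% called, against 28.8% of all genes, 14.7% called higher and 14.1% called lower). At 100 nM, 32 rose and 0 fell (39.0%, against 33.8% of all genes, 15.4% called higher and 18.4% called lower). The median member changed by 0.13 at 20 nM and 0.15 at 100 nM, against 0.00 and -0.02 for all genes. Without library 7 the median at 20 nM was 0.074, with 26 members called higher and 7 lower. Both 20 nM libraries lay above both solvent libraries for 42 members and below them for 8, and both 100 nM libraries above them for 69 members and below for 1, against 31.5% and 32% of all genes above and 31.1% and 37.9% below. The 20 members called higher at both doses, which were set against the same solvent libraries, included RPS19, RPS24 and RPS10 of the small subunit, RPL5 and RPL11, RPL21, RPL28, RPL30 and RPL35 of the large subunit, and RPLP2.

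The direction at 20 nM and 24 h depended on how the libraries were scaled. Rescaling every library to the same FPKM sum lowered the median change of all genes by 0.16, and under it 4 members were called higher and 24 lower. Scaling to the nuclear sum gave 19 higher and 8 lower, scaling to the nuclear sum without the members 23 and 5, and median-of-ratios scaling 32 and 2. Relative to the median of all genes, the members' median stood 0.12 higher in the values as deposited and 0.10 higher under the common sum. Of the 34 calls at 20 nM, 24 kept their sign under all 4 scalings, and RPS15, RPS15A, RPS21, RPS27A, RPL13A and RPL37 were called under all of them. RPLP1 and RPS20, whose rises are given below, were not called under the common sum (0.41 and 0.30). At 100 nM and 24 h the same 4 scalings gave 8, 19, 21 and 41 members higher and 1, 1, 1 and 0 lower, the 32 calls kept their sign in each, and RPS12, RPS27A, RPL11, RPL30, RPL35, RPL36 and RPLP2 were among those called in all. Mitochondrially encoded genes rose alongside at 24 h, with 12 of 13 called higher at 20 nM and 9 of 13 at 100 nM; the scaling to the nuclear sum above removes them from the denominator.

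**Figure D2:**
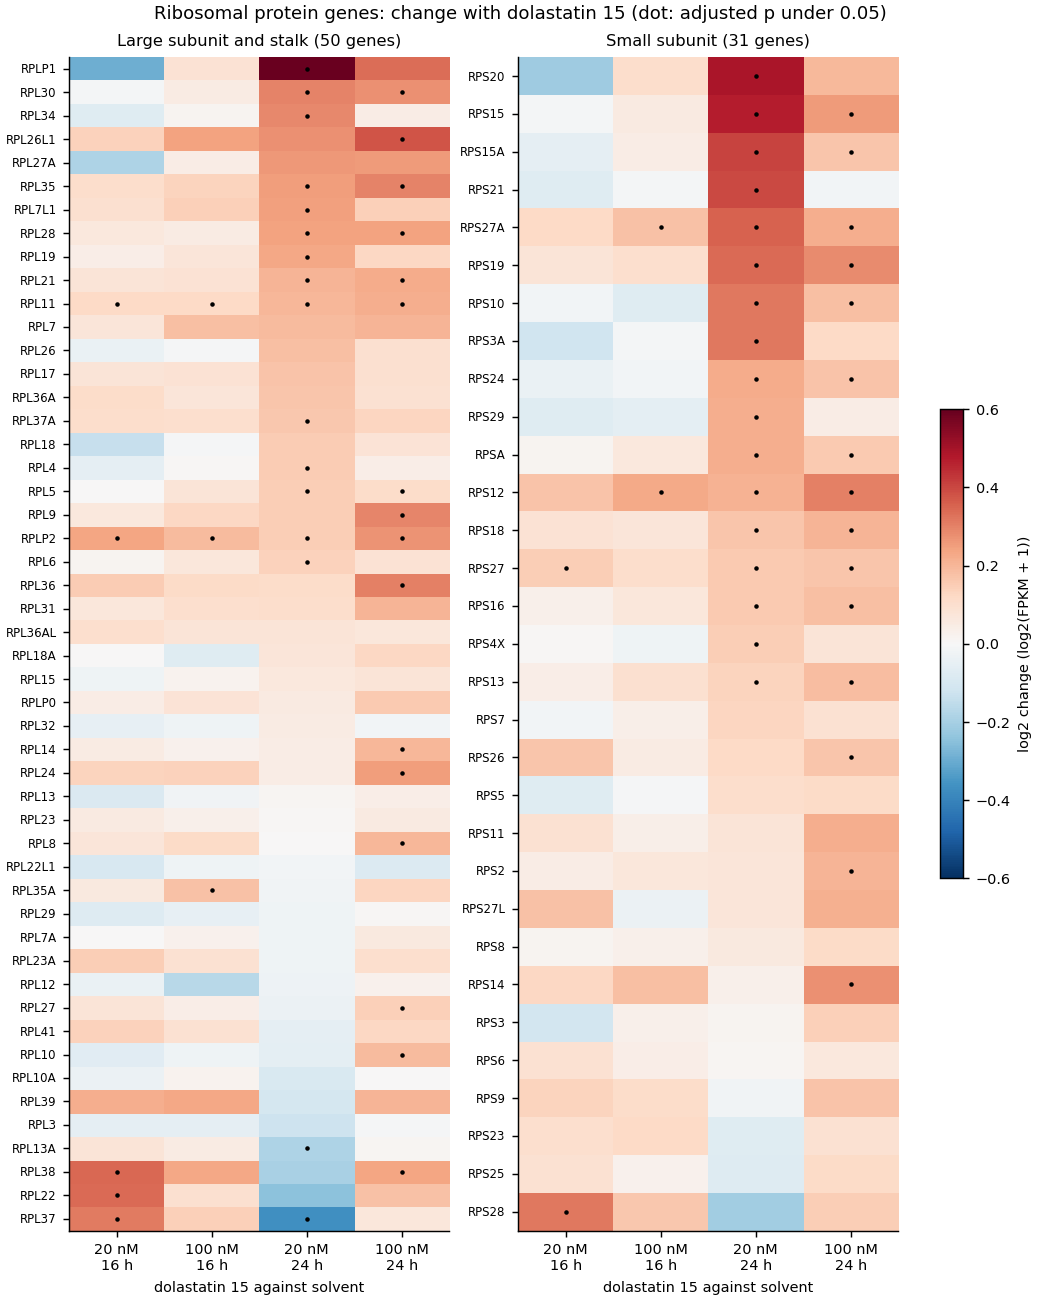
Log2 change of 81 of the 82 tested genes with dolastatin 15 against solvent at 20 nM and 100 nM, 16 h and 24 h, for the large subunit with the stalk (left) and the small subunit (right), ordered by the change at 20 nM and 24 h; a dot marks a limma adjusted p below 0.05. Changes after 24 h are mostly positive in these values, with, over all 82 genes, 32 rises and 2 falls at 20 nM and 32 rises at 100 nM, but at 20 nM the counts become 4 rises and 24 falls when libraries are scaled to a common FPKM sum.

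The stalk is the flexible arm of the large subunit that recruits the elongation factors, and it is built on RPLP0 by pairs of RPLP1 and RPLP2. RPLP2 (chromosome 11) rose in all 4 drug comparisons. It read 724 and 714 FPKM at 20 nM, 704 and 688 at 100 nM and 598 and 622 with solvent at 16 h, and 767 and 801 at 20 nM, 864 and 846 at 100 nM and 702 and 714 with solvent at 24 h. Every drug library was above both solvent libraries of its time. Its log2 change was 0.24, 0.19, 0.15 and 0.27 in that order (SE 0.04 each), with limma adjusted p of 0.00279, 0.00563, 0.015 and 0.000702. At 20 nM and 24 h the sign reversed to -0.041 when libraries were scaled to a common FPKM sum, and that call ended without library 8 or 11 (adjusted p up to 0.0865); the other 3 calls stood in all 12 fits that left out a library. RPLP1 showed the greatest change of any member against solvent, 0.59 ± 0.18 (SE) at 20 nM and 24 h (adjusted p = 0.0351), but its duplicates differed widely: it read 2219.7 and 1494 FPKM at 20 nM and 1629 and 1427 at 100 nM, against 1197 and 1216 with solvent. At 16 h it read 1554 and 1557 FPKM at 20 nM, 2030.3 and 2021 at 100 nM and 2221 and 1639 with solvent. RPLP1 also had the widest range of all members over the 12 libraries, 0.89 on the log2 scale, and its call at 20 nM and 24 h ended without library 1, 2, 7, 11 or 12 (up to 0.174). RPLP0 was not called: at 24 h it read 2326 and 2069 FPKM at 20 nM, 2393 and 2315 at 100 nM and 2177 and 2052 with solvent.

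The small subunit held 18 of the 32 rises at 20 nM and 24 h and 16 of the 32 at 100 nM. Of its 32 genes 18 rose (56.2% called) at 20 nM, against 12 rises and 2 falls among 47 large subunit genes (29.8% called). At 100 nM 16 of 32 small subunit genes and 15 of 47 large subunit genes (31.9% called) rose. Of all genes, 28.8% were called at 20 nM and 33.8% at 100 nM, so the large subunit's share was near that of all genes. Over all members, the 32 rises and 2 falls at 20 nM became 4 rises and 24 falls under a common FPKM sum. The difference between the subunits was not tested. RPS15, a protein needed for export of the small subunit from the nucleus, read 6293 and 6375 FPKM at 20 nM, 5546 and 5371 at 100 nM and 4301 and 4863 with solvent at 24 h. Its change was 0.47 ± 0.08 at 20 nM (SE; limma adjusted p = 0.00304) and 0.25 ± 0.08 at 100 nM (adjusted p = 0.0356), and at neither dose did drug and solvent libraries overlap. RPS15A read 3419 and 3455 FPKM at 20 nM, 2995 and 2841 at 100 nM and 2486 and 2713 with solvent (0.40 ± 0.06 and 0.17 ± 0.06, SE; adjusted p = 0.00114 and 0.0441). RPS21 read 5799.6 and 6182 FPKM at 20 nM, 4564 and 4457 at 100 nM and 4279 and 4850.4 with solvent, a change of 0.39 ± 0.07 at 20 nM (SE; adjusted p = 0.0028) and -0.01 ± 0.07 at 100 nM (adjusted p = 0.889). RPS20, of the subunit's head, read 3106 and 3091 FPKM at 20 nM, 2618 and 2436 at 100 nM and 2062 and 2356 with solvent (0.49 ± 0.13 and 0.20 ± 0.13, SE; adjusted p = 0.022 and 0.281). In these 4 genes both 20 nM libraries were above every solvent library at 24 h. The calls for RPS15, RPS15A and RPS21 at 20 nM stood in all 12 fits that left out a library, whereas that for RPS20 ended without library 7, 8 or 11 (up to 0.133). At 100 nM the call for RPS15 ended without library 9, 10 or 11 (up to 0.21) and that for RPS15A without library 3, 4, 5, 6, 9, 10 or 11 (up to 0.253).

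RPS27A is made as a fusion of ubiquitin with a small subunit protein. It read 550.4 and 552 FPKM at 20 nM, 495 and 508 at 100 nM and 415 and 448 with solvent at 24 h, with changes of 0.35 ± 0.04 (SE; limma adjusted p = 0.000557) and 0.22 ± 0.04 (adjusted p = 0.00439). At 16 h it read 470.1 and 480.4 FPKM at 20 nM, 496 and 495 at 100 nM and 447 and 428 with solvent, and was called at 100 nM (0.18 ± 0.04, SE; adjusted p = 0.0158) but not at 20 nM (0.12; adjusted p = 0.0866). All 8 drug libraries were above the solvent libraries of their time. The 16 h call ended without library 3, 4 or 6 (up to 0.0995), and both 24 h calls stood in all 12 fits. RPS12 at 24 h read 988 and 863 FPKM at 20 nM, 998 and 974 at 100 nM and 791 and 805 with solvent, with a change of 0.30 ± 0.07 at 100 nM (SE; adjusted p = 0.00762). That call ended without library 9 (0.0507).

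Among large subunit genes, RPL11, like RPLP2, was called higher in all 4 drug comparisons. With RPL5 and a ribosomal RNA it forms the particle that binds MDM2. It read 1703 and 1734 FPKM at 20 nM, 1734 and 1701 at 100 nM and 1589 and 1571 with solvent at 16 h. At 24 h it read 1883 and 1795 FPKM at 20 nM, 1851 and 1867 at 100 nM and 1596 and 1603 with solvent. No drug library overlapped the solvent libraries of its time. The changes were small, 0.12 at both doses at 16 h and 0.20 at 20 nM and 0.22 at 100 nM at 24 h (SE 0.03 each), with limma adjusted p of 0.0362, 0.03, 0.00284 and 0.0015. Under a common FPKM sum the change at 20 nM and 24 h was 0.012 and was not called. The 24 h calls stood in all 12 fits that left out a library, and the 16 h calls each ended in 8 of them (adjusted p up to 0.185 at 20 nM and 0.131 at 100 nM). RPL5, taken up as the partner of RPL11 after its values were seen, read at 24 h 1281 and 1231 FPKM at 20 nM, 1232 and 1216 at 100 nM and 1116 and 1151 with solvent. Its changes of 0.15 and 0.11 had adjusted p of 0.0138 and 0.0384; at 20 nM its sign reversed to -0.041 under scaling to a common FPKM sum, and the call ended without library 11 (0.091), while the 100 nM call ended without any of libraries 1, 2, 5, 6, 9, 10, 11 and 12 (up to 0.185).

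The greatest rises of the large subunit at 100 nM and 24 h were those of RPL26L1, described with the paralogs, and of RPL36, RPL35 and RPL9. RPL36 read 1128 and 1158 FPKM at 100 nM against 919 and 935 with solvent (0.30 ± 0.06, SE; limma adjusted p = 0.00523), and RPL35, which sits at the mouth of the exit tunnel, read 4675 and 4531 FPKM at 100 nM against 3764 and 3724 with solvent (0.30 ± 0.04, SE; adjusted p = 0.00132). RPL9 read 929.8 and 893 FPKM at 100 nM against 767 and 722 with solvent (0.29 ± 0.08, SE; adjusted p = 0.0249). In all 3 the drug libraries were above the solvent libraries. RPL36 and RPL35 stood in all 12 fits that left out a library, and the call for RPL9 ended without library 9, 10, 11 or 12 (up to 0.13). At 20 nM and 24 h, RPL35 read 4666 and 4246 FPKM (0.25; adjusted p = 0.00392), RPL36 1074 and 934 (0.11; adjusted p = 0.201) and RPL9 896 and 759.7 (0.15; adjusted p = 0.212). Under a common FPKM sum this RPL35 change was 0.06, and its call held in 3 of the 4 scalings.

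Of all members, 2 fell in any comparison of drug with solvent, both at 20 nM and 24 h. RPL37 read 661 and 627 FPKM at 20 nM and 811 and 938 at 100 nM, against 844 and 821 with solvent. Its change at 20 nM was -0.37 ± 0.08 (SE; limma adjusted p = 0.0116). RPL13A, which in human myeloid cells can leave the ribosome to silence inflammatory mRNAs, read 1978 and 2131 FPKM at 20 nM and 2353 and 2361 at 100 nM, against 2292 and 2384 with solvent (-0.19 ± 0.04 at 20 nM, SE; adjusted p = 0.00877). In both genes the 20 nM libraries were below every other 24 h library. Both stayed called under all 4 scalings; the call for RPL37 ended without library 8 or 11 (up to 0.0663) and that for RPL13A without library 12 (0.0615). Members that showed no call in any of the 4 drug comparisons numbered 33, among them RPLP0, RPL3, which forms part of the catalytic centre's surroundings, and RPS6, the substrate of the S6 kinases.

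**Figure D3:**
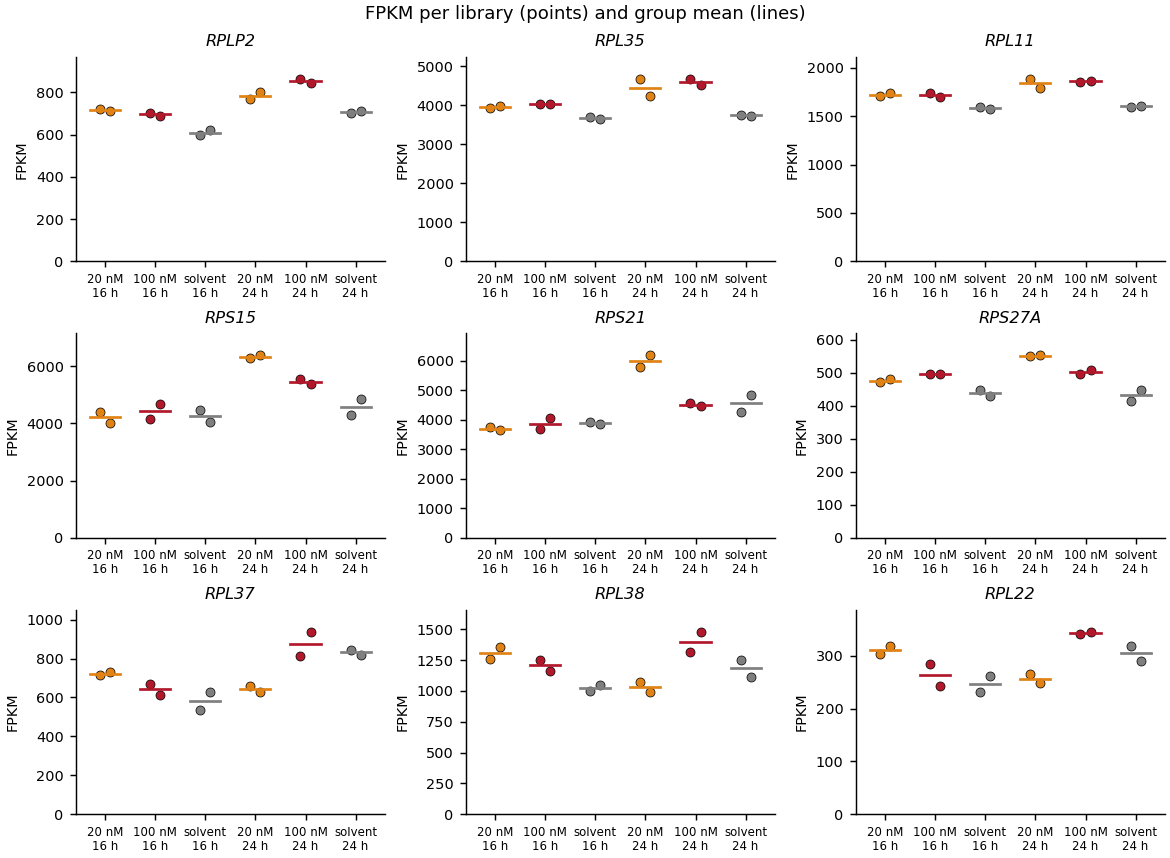
FPKM of 9 genes in every library (points) with the mean of each group of 2 (lines), each axis starting at 0. RPLP2, RPL35 and RPL11 (top) lie above solvent in every drug group, RPS15, RPS21 and RPS27A (middle) are highest at 20 nM and 24 h, and RPL37, RPL38 and RPL22 (bottom) lie above solvent at 20 nM and 16 h but below it at 20 nM and 24 h.

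The 2 doses were also set against each other within each time. At 16 h 0 of 82 members were called by limma between 100 nM and 20 nM (0.320% of all genes were called, 0.0446% higher and 0.275% lower), and 3 members had an unadjusted p below 0.05. At 24 h, 6 members were higher and 3 lower at 100 nM than at 20 nM (11% called, against 4.88% of all genes, 1.82% called higher and 3.06% lower). The higher ones were RPL37 (0.44 ± 0.08, SE), RPL38 (0.43 ± 0.08), RPL22 (0.42 ± 0.09), RPL10 (0.25 ± 0.05), RPL13A (0.20 ± 0.04) and RPL27 (0.18 ± 0.04), with adjusted p between 0.0224 and 0.033. All 6 are large subunit genes. RPL38 read 1313 and 1479.8 FPKM at 100 nM against 1074 and 989.5 at 20 nM. RPL22 read 341 and 345 FPKM at 100 nM against 265 and 247 at 20 nM, and RPL10, a protein that joins the large subunit last, read 1943 and 1877 FPKM at 100 nM against 1647 and 1569.9 at 20 nM. The lower ones were RPS21 (-0.41 ± 0.07, SE; adjusted p = 0.0145), RPL34 (-0.24 ± 0.05; adjusted p = 0.0249) and RPS15A (-0.24 ± 0.06; adjusted p = 0.0475). RPL34 read 1133 and 1122 FPKM at 100 nM against 1343 and 1329.7 at 20 nM. In each of the 9 genes the libraries of the 2 doses did not overlap. These counts depended on single libraries: 0 members were called without library 9 or 10, 1 without library 8 and 24 without library 7. Scaling to a common FPKM sum gave 19 higher and 1 lower.

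Time in culture also moved some members. Between solvent at 24 h and solvent at 16 h, 12 members were higher and 3 lower at 24 h (18.3% called, against 5.62% of all genes, 3.14% called higher and 2.47% lower), while the median member, at 0.02, equalled that of all genes. RPS28 read 642 and 597 FPKM in solvent at 24 h against 401 and 453 at 16 h (0.54 ± 0.09, SE; limma adjusted p = 0.0198). RPL37 read 844 and 821 FPKM at 24 h against 537 and 626 at 16 h (0.52 ± 0.08; adjusted p = 0.0159), and RPL36A, which lies at the exit site for tRNA, read 2715 and 3035 FPKM at 24 h against 2063 and 2246 at 16 h (0.42 ± 0.06; adjusted p = 0.0143). The genes that were lower at 24 h were RPL7, with 2294 and 2139 FPKM at 24 h against 2924 and 2788 at 16 h (-0.37 ± 0.07; adjusted p = 0.0266), RPL9, with 767 and 722 against 967 and 929.9 (-0.35 ± 0.08; adjusted p = 0.0449), and RPL10, with 1627 and 1722 against 2049 and 1959.6 (-0.26 ± 0.05; adjusted p = 0.0219). In these 6 genes the libraries of the 2 times did not overlap. The count fell to 0 without library 5 or library 12, to 3 without library 6 and to 5 without library 11, and was 28 without library 7 or 8, so it rests on each of the 4 solvent libraries.

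The drug's effect at 20 nM differed between the times. The difference of the effects, 24 h minus 16 h, was called for 16 members (19.5%, against 11.5% of all genes, 7.06% positive and 4.46% negative), positive in 11 and negative in 5. Positive differences were greatest for RPS20 (0.70 ± 0.19, SE; limma adjusted p = 0.0423), RPS15 (0.48 ± 0.11; adjusted p = 0.0269) and RPS21 (0.47 ± 0.09; adjusted p = 0.0146). The negative ones were RPL37 (-0.68 ± 0.12; adjusted p = 0.00922), RPL22 (-0.59 ± 0.12; adjusted p = 0.0178), RPL38 (-0.54 ± 0.11; adjusted p = 0.0172), RPS28 (-0.53 ± 0.13; adjusted p = 0.0371) and RPL13A (-0.27 ± 0.06; adjusted p = 0.0201). RPL37, RPL22, RPL38 and RPS28 thus read above solvent at 16 h and below it at 24 h. From 16 h to 24 h solvent itself rose by 0.52 for RPL37 and by 0.54 for RPS28. For RPS28 the rise in solvent was thus about as large as the difference of -0.53, and for RPL37 it was most of the difference of -0.68. The small subunit accounted for 9 of the 11 positive differences. Across the 82 genes the 20 nM effects at the 2 times had a Spearman rho of -0.27 and a Pearson r of -0.48, given as a description, since genes share libraries and are not replicates. At 100 nM the difference was called by limma for 0 members (10.2% of all genes were called, 5.87% positive and 4.29% negative; 8 members had an unadjusted p below 0.05), and the effects at the 2 times had a rho of 0.61 and an r of 0.61. Whether the change of effect differs between the doses was not tested. The count of 16 fell to 3 without library 2 or 5, to 5 without library 11 and to 8 without library 1, and without library 7 there were 10 positive and 11 negative. Under a common FPKM sum it became 2 positive and 19 negative, under the nuclear sum 6 and 7, and under the nuclear sum without members 7 and 6; RPL34, RPS15A and RPL37 stayed called in all 12 fits that left out a library.

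**Figure D4:**
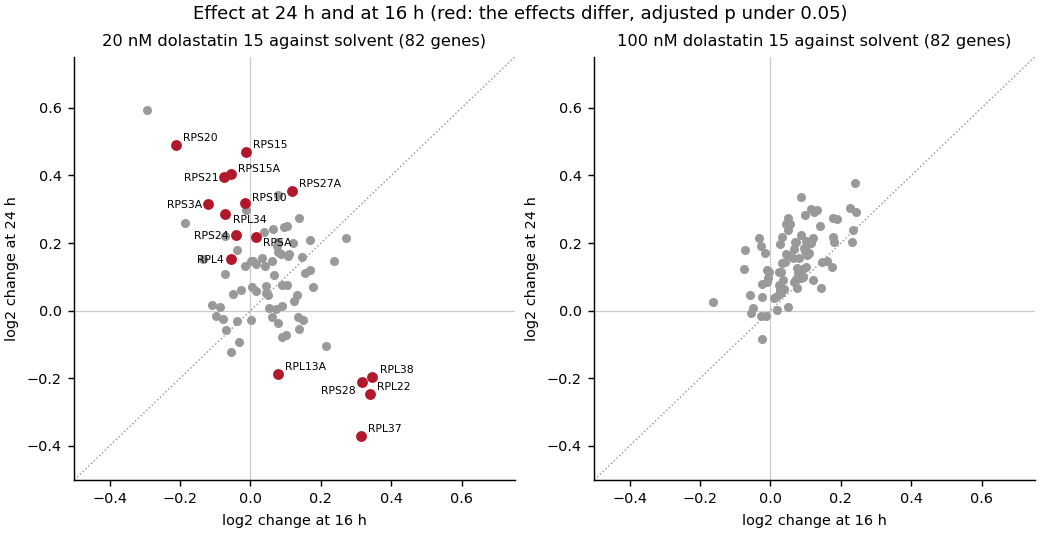
Log2 change against solvent at 24 h (vertical) and at 16 h (horizontal) for the 82 tested genes at 20 nM (left) and 100 nM (right); the dotted line marks equal changes, and red points are genes whose 2 effects differ at a limma adjusted p below 0.05. At 20 nM 16 genes differ, with RPL37, RPL22, RPL38 and RPS28 at the lower right and RPS20, RPS15 and RPS21 at the upper left, while at 100 nM 0 genes differ; under a common FPKM sum 2 of the 20 nM differences are positive and 19 negative.

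The duplicates at 20 nM and 24 h agreed least. Library 7 read above library 8 for 59 of 82 members, and the median absolute difference between them was 0.11 on the log2 scale, against 0.03 to 0.06 in the other 5 groups. Among 1201 other genes of at least 100 FPKM the same pair also had the largest median difference, 0.10. Without library 11 the count of members called at 20 nM and 24 h fell to 13. At 100 nM and 24 h it fell to 11 without library 9, 14 without library 11 and 19 without library 10.

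Several members have a paralog among the members, taken here by its symbol suffix alone. How widely each paralog is used, and whether it replaces its parent in the ribosome, was not examined. Of 8 such paralogs, RPL7L1, RPL22L1, RPL26L1, RPL36AL and RPS27L passed the filter in these cells. The starts of 4 of them and of their parents are shown because they differ in the pyrimidine run, given in capitals as above.
RPL22: cgctcacctcCCTTTCTaactccgctgc
RPL22L1: ccgtagcttcCTCTCTgctctcgcggcc
RPL26: gcgtgtagttCTCTTCCCTTTTgcggcc
RPL26L1: tccaggggtcggcgaacgaaacgcggag
RPL36A: ctcgcggtttCTTTCTTTCCgcgccgat
RPL36AL: tcttccctttCCTgttaggcgagagctg
RPS27: cgctttcgctCCTTTCCggcggtgacga
RPS27L: gatgccgagcgcagatcgcttgcagctt
They lie on GRCh38.p14 at chr1:6199578-6199605 minus for RPL22, chr3:170870178-170870205 minus for RPL22L1, chr17:8383176-8383203 minus for RPL26, chr5:172958719-172958746 plus for RPL26L1, chrX:101391001-101391028 plus for RPL36A, chr14:49620609-49620636 minus for RPL36AL, chr1:153990752-153990779 plus for RPS27 and chr15:63157460-63157487 minus for RPS27L. The run is 12 bases in RPL26 and 10 in RPL36A but absent from RPL26L1 and 3 bases long in RPL36AL, and RPS27 has 7 bases where RPS27L has none. RPL22 and RPL22L1 both start with a run, of 7 and 6 bases.

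RPL22L1 was the one paralog read above its parent. It lay between 451 and 556 FPKM over the 12 libraries, against 230.4 to 345 for RPL22, and it was called in none of the 4 drug comparisons, whereas RPL22 rose at 20 nM and 16 h. RPS27L lay between 30.4 and 48.0 FPKM against 6546 to 8843 for RPS27, which rose at 20 nM at both times and at 100 nM at 24 h (0.15, 0.16 and 0.16). For RPS27 the change at 20 nM and 24 h reversed to -0.029 under a common FPKM sum and its call ended without library 11 (0.0782), the 16 h call ended without library 1, 2, 5 or 6 (up to 0.176), and the 100 nM call ended without library 9 or 11 (up to 0.0671). At 24 h RPS27L read 37.2 and 44.1 FPKM at 20 nM, 48.0 and 41.9 at 100 nM and 40.9 and 36.3 with solvent, with changes of 0.07 ± 0.11 and 0.21 ± 0.11 (SE; limma adjusted p = 0.671 and 0.17). RPL26L1 read 143 and 138 FPKM at 100 nM and 24 h against 104 and 112 with solvent, the largest rise of any member in that comparison (0.38 ± 0.10, SE; adjusted p = 0.0165), while RPL26 read 4436 and 4203 against 3878 and 4208 (0.10 ± 0.06; adjusted p = 0.265). The RPL26L1 call ended without library 9, 10 or 11 (up to 0.0965). At 20 nM and 24 h RPL26L1 read 147 and 116 FPKM (0.27 ± 0.10; adjusted p = 0.0618). RPL7L1 read 146 and 156 FPKM at 20 nM and 146 and 136 at 100 nM against 128 and 127 with solvent at 24 h, called at 20 nM (0.25 ± 0.05, SE; adjusted p = 0.00668) and not at 100 nM (0.14; adjusted p = 0.0505). Under a common FPKM sum the RPL7L1 change at 20 nM was 0.06, and its call held in 3 of the 4 scalings. RPL7 had changes of 0.19 and 0.20 (adjusted p = 0.0796 and 0.0592). RPL36AL and RPL36A were called in no drug comparison, and both were higher in solvent at 24 h than at 16 h (0.27 ± 0.04 and 0.42 ± 0.06, SE; adjusted p = 0.013 and 0.0143). The parents of the 3 paralogs below the filter, RPL3, RPL10 and RPL39, had 24 h changes of -0.12, -0.06 and -0.10 at 20 nM and -0.01, 0.19 and 0.20 at 100 nM, of which RPL10 at 100 nM was called (adjusted p = 0.0146). Differences between a paralog and its parent were not tested.

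**Figure D5:**
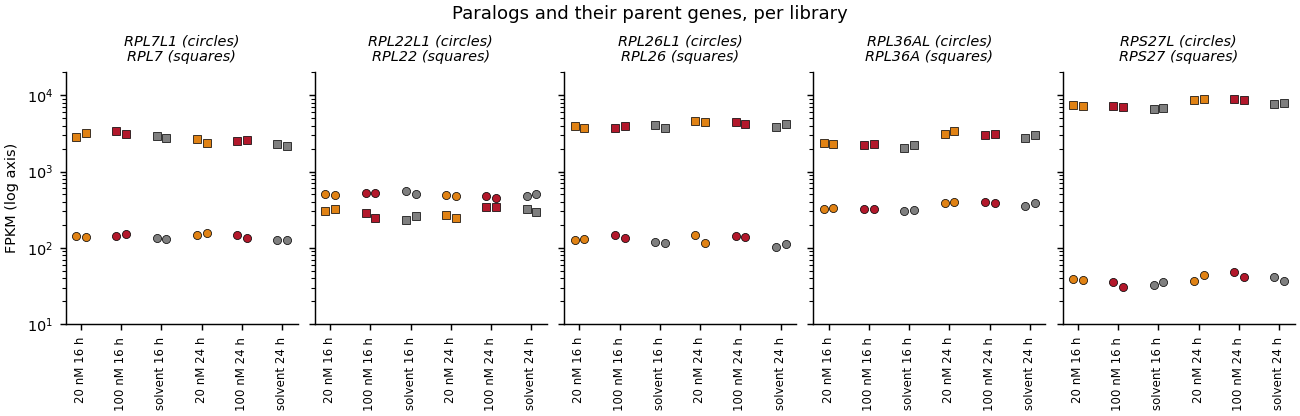
FPKM on a log axis of 5 paralogs (circles) and their parent genes (squares) in every library, with 20 nM left of 100 nM and solvent at each time. RPL22L1 lies above RPL22 in every library, and the other 4 paralogs lie below their parents, RPS27L by the most.

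The calls were also counted by the start of the gene and by its introns, with no test between the classes. Among genes with the pyrimidine run, 18 of 43 rose at 20 nM and 24 h and 18 of 43 at 100 nM, against 9 and 8 of 24 tested genes whose window lacks it and 14.7% and 15.4% of all genes called higher. A small nucleolar RNA (snoRNA) gene lies within 28 of the 85 genes, as in RPL13A, which holds 4. Of these 28, 10 rose and 2 fell at 20 nM and 24 h and 9 rose at 100 nM, against 22 and 23 of the 54 tested genes without one. The changes had weak rank correlations with coding length, which runs from 75 bases in RPL41 to 1281 in RPL4: Spearman rho was -0.37 at 20 nM and -0.27 at 100 nM at 16 h, and -0.06 and -0.21 at 24 h, over 82 genes that share the same libraries.

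Ribosomal protein genes have many processed pseudogenes, whose reads cannot always be told from those of the parent. The table held 1144 such entries, of which 63 were tested, and their sum was 2499 to 2993 FPKM per library. The largest were RPS2P5 with a mean of 1019.6 FPKM, RPL23AP42 with 977 and RPL9P9 with 275. RPS2P5 was called higher at 24 h at both doses (0.29 and 0.24; limma adjusted p = 0.0052 and 0.00977), and RPL9P9 at 100 nM (0.25; adjusted p = 0.0336), so the values of RPS2 and RPL9 are uncertain to that extent. RPL23AP42 read above its parent RPL23A, which had a mean of 728 FPKM and was called in none of the 4 drug comparisons, and the values of RPL23A are uncertain as well. The read-through gene RPS10-NUDT3 had a mean of 8.17 FPKM.

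Genes that work with the ribosomal proteins were described from lists chosen with earlier results of these data known. Of 3 genes that encode other ribosomal proteins or fusions, FAU, a fusion of a ubiquitin-like protein with a small subunit protein, read 1489.6 and 1583 FPKM at 20 nM, 1410.1 and 1341 at 100 nM and 1062 and 1172 with solvent at 24 h (0.46 and 0.30; limma adjusted p = 0.00104 and 0.00584). RACK1, a scaffold on the small subunit, was not called. Of 32 ribosome biogenesis factors, 11 rose at 20 nM and 12 at 100 nM after 16 h, and 14 and 22 after 24 h, with 0 lower. Of all genes, 6.78% and 9.16% were called higher after 16 h, and 14.7% and 15.4% after 24 h. NOP58, a core protein of box C/D snoRNA particles, read 254 and 251 FPKM at 20 nM, 259.8 and 241 at 100 nM and 178 and 184 with solvent at 24 h (0.48 and 0.47; adjusted p = 0.000471 and 0.00038). SBDS, which readies the large subunit for translation, rose by 0.54 and 0.47 and the kinase RIOK2, of small subunit maturation, by 0.58 and 0.60. Under a common FPKM sum the biogenesis counts at 20 nM and 24 h were 7 higher and 8 lower, and at 100 nM 10 and 0. Among 16 TOP mRNAs of translation factors and related proteins, 2 rose and 1 fell at 20 nM and 24 h and 1 rose and 4 fell at 100 nM, against 28.8% and 33.8% of all genes called. At 16 h 0 rose and 4 fell at 20 nM, and 0 rose and 3 fell at 100 nM, against 17.7% and 23.8% of all genes called. NPM1, a nucleolar chaperone, read 4141 and 3975 FPKM at 20 nM, 3278 and 3207 at 100 nM and 3306 and 3050.3 with solvent (0.35 and 0.03; adjusted p = 0.000668 and 0.632), and the initiation factor EIF4B fell by 0.21 at 20 nM and by 0.31 at 100 nM. Under a common FPKM sum 1 of the 16 was higher and 9 lower at 20 nM.

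Of 15 tested regulators of mTORC1 and of TOP mRNAs, 1 rose and 3 fell at 20 nM and 24 h, and 2 rose and 3 fell at 100 nM, against 0 higher with 9 and 7 lower under a common FPKM sum. At 16 h 2 rose and 1 fell at 20 nM and 1 rose and 2 fell at 100 nM. Of all genes, 17.7% and 23.8% were called at 16 h. As a share of the list, the calls at 24 h were near the 28.8% and 33.8% of all genes called. EIF4EBP2, a repressor of the cap-binding protein that mTORC1 inactivates, read 11.73 and 12.55 FPKM at 20 nM, 10.48 and 11.01 at 100 nM and 17.41 and 17.95 with solvent at 24 h, log2 changes of -0.51 and -0.67 (limma adjusted p = 0.000293 and 4.41e-05). It was also lower at 16 h (-0.39 and -0.34). LARP1 changed by -0.26 at both doses at 24 h (adjusted p = 0.00734 and 0.00588), and RHEB, the GTPase that activates mTORC1, was higher in all 4 drug comparisons (0.22 to 0.25). RHEB was not called at 24 h under a common FPKM sum. Of 11 RNA polymerase I genes 6 rose and 1 fell at each dose at 24 h. Of all genes, 14.7% and 15.4% were called higher and 14.1% and 18.4% lower. POLR1C was higher in all 4 comparisons (0.31, 0.30, 0.27 and 0.37). UBTF, an activator of rDNA transcription, was lower at 24 h (-0.22 and -0.32). Under a common FPKM sum the count at 20 nM and 24 h was 0 higher and 1 lower. At 16 h 3 of the 11 rose and 2 fell at 20 nM, and 2 rose and 2 fell at 100 nM, against 17.7% and 23.8% of all genes called. The falls at 16 h were those of TAF1D (-0.37 and -0.45) and TAF1B (-0.36 and -0.47), subunits of the promoter selectivity factor. Of 11 snoRNA host RNAs 5 rose at each dose at 24 h, against 14.7% and 15.4% of all genes called higher. SNHG15 rose by 0.44 and 0.59 and SNHG1 by 0.39 and 0.43. Between solvent at 24 h and at 16 h, 0 of the 11 were higher and 5 lower, against 5.62% of all genes called. SNHG15 changed by -0.45 there, so its rise against solvent at 24 h was set against a lower solvent level. Under a common FPKM sum 2 of the 11 were called higher at 20 nM and 24 h. At 16 h 1 rose and 3 fell at 20 nM and 0 rose and 2 fell at 100 nM, against 17.7% and 23.8% of all genes called. SNHG12 changed by -1.10 at 20 nM and -1.39 at 100 nM at 16 h. Of 9 dedicated chaperones of ribosomal proteins 3 rose at 20 nM and 5 rose and 1 fell at 100 nM after 24 h, PDCD2L by 0.38 and 0.47, and at 20 nM a common FPKM sum gave 1 higher and 2 lower. As a share of the list, the calls at 20 nM and 24 h were near the 28.8% of all genes called. At 100 nM and 24 h, 33.8% of all genes were called. At 16 h 1 rose and 1 fell at 20 nM, and 3 rose and 2 fell at 100 nM, against 17.7% and 23.8% of all genes called. The largest changes at 16 h were those of HEATR3 (-0.58 and -0.57), followed by LTV1 (0.33 and 0.36). Of 7 genes listed around RPL5 and RPL11, RPF2, an assembly factor of the particle that RPL5 and RPL11 form, rose in all 4 comparisons (0.21, 0.23, 0.41 and 0.34). MDM2 was not called.

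The label of the cells was read against marker genes. EPCAM lay between 250.6 and 335 FPKM and KRT8 between 409.6 and 458, as in an epithelial line, while the differentiated gut markers VIL1, CDX1 and LGALS4 stayed below 1 FPKM. Of 8 markers of blood, endothelial, stromal and liver cells, COL1A1 alone was tested, at 1.44 to 4.34 FPKM, and the others, among them PTPRC and CD3E, stayed at or near 0. Read depth is not known from FPKM, and the values do not fall on steps that would give whole reads.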

How the data were processed

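Poly(A) RNA of HCT116 cells was sequenced from directional libraries, 12 in all, per the labels' protocols. The authors deposited 1 table of FPKM with 12 columns, made with RSEM 1.2.28 on GRCh38 per the submitters' processing notes; the aligner, annotation release and strand setting were not given in the sources used here. Values carry 2 decimals, and their depth is unknown. Gene IDs were named with GENCODE 29, which gave a symbol to 57836 of 58174. Genes with at least 1 FPKM in at least 2 libraries (13458) were fitted with limma 3.58.1 in R 4.3.3 on log2(FPKM + 1), which understates changes of low genes, as 6 group means with a mean-dependent prior and 6 residual degrees of freedom. The 9 contrasts were two-sided, with Benjamini-Hochberg adjustment over all tested genes and calls below 0.05. The fit was tested on simulated data, in which 34.8% of 1.25-fold changes and 71.6% of 1.5-fold changes were called. Pseudocounts, filters, 4 scalings, the prior, single times and each library left out were tried. Members, gene lists and tests were chosen with earlier results of these data known. Genes given values were those called with the largest changes in each comparison (up to 5 per direction, or 3 for solvent time and changes of effect), the 5 highest and lowest, the paralogs with their parents, genes called in all drug comparisons, and the 3 largest calls of each list. RPL5, RPL27, RPLP0, RPS6, RACK1 and MDM2 were added after their values were seen. Some genes within the counts are not reported here. Sequences are RefSeq's, on GRCh38.p14. Counts and sums used Python 3.11.15 with pandas 2.3.3.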

Additional observations from a re-analysis of the deposited data

Results flagged for a closer look

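For 16 ribosomal protein genes the effect of 20 nM dolastatin 15 at 24 h differed from that at 16 h, by a limma test of the difference itself with an adjusted p below 0.05. The difference, 24 h minus 16 h on the log2 scale, was negative for RPL37 (-0.68), RPL22 (-0.59), RPL38 (-0.54), RPS28 (-0.53) and RPL13A (-0.27). It was positive for RPSA (0.20), RPL4 (0.21), RPS27A (0.24), RPS24 (0.27), RPS10 (0.33), RPL34 (0.36), RPS3A (0.43), RPS15A (0.46), RPS21 (0.47), RPS15 (0.48) and RPS20 (0.70). Scaling to a common FPKM sum moved the median of this difference over all genes by -0.17, and RPL22, RPL37, RPL38, RPS28, RPL13A, RPS15A and RPS21 were called under all 4 scalings. Mitochondrially encoded genes took 23.8% and 25.8% of the FPKM sum in the 20 nM libraries at 24 h, against 17.9% and 18.6% with solvent; their part in the result was not tested.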

How the results depend on the processing

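With 2 libraries a group, calls depended on single libraries. Leaving out each library in turn, the members called ranged from 2 to 13 at 20 nM and 16 h, 2 to 14 at 100 nM and 16 h, 13 to 39 at 20 nM and 24 h, 11 to 43 at 100 nM and 24 h, 0 to 24 between doses at 24 h, 0 to 28 for solvent time, 3 to 21 for the change of the 20 nM effect and 0 to 3 for that of the 100 nM effect; between doses at 16 h the count was 0 in each. With no filter on low values, 2, 3, 21 and 15 members were called in the drug comparisons (20 nM and 100 nM at 16 h, then at 24 h), 0 between doses at 24 h, 4 for solvent time and 3 for the change of the 20 nM effect. Median-of-ratios scaling gave 13 at 20 nM and 16 at 100 nM after 16 h. A constant prior gave 4 and 3 after 16 h, 3 between doses at 24 h and 9 for the change of the 20 nM effect. Fitting one time alone gave 4 at 20 nM and 16 h, 20 and 19 at 20 nM and 100 nM after 24 h and 0 between doses at 24 h. A common FPKM sum gave 3 at 100 nM and 16 h, 9 at 100 nM and 24 h and 20 between doses at 24 h, and the nuclear sum gave 20 at 100 nM and 24 h. Under the common sum 4 members were called higher and 24 lower at 20 nM and 24 h, against 32 and 2 in the values as deposited. There the median of all genes moved by -0.16. Of the 34 calls as deposited, 24 kept their sign under all 4 scalings. RPLP2 (-0.041) and RPS27 (-0.029) were among those that reversed under the common sum. The summed FPKM moved by more than the spread of duplicates under the common sum (167050.0 at 20 nM and 163480.0 with solvent at 16 h, 168782 at 20 nM and 173939 with solvent at 24 h), the nuclear sum (167312 at 20 nM, 169439 at 100 nM and 163941 with solvent at 16 h, 175712 at 100 nM and 24 h), the nuclear sum without members (166588 and 169316 at 20 nM and 100 nM after 16 h, 177460.0 at 100 nM and 24 h) and median-of-ratios scaling (166598 and 170462 at 20 nM and 100 nM after 16 h). The cause of these shifts was not tested. For the named genes, 1371 of the leave-out values kept direction and call, 222 lost the call and 27 gained one; under the other settings these were 1170, 126 and 30. No paired analysis was possible because the table's columns carry library numbers and not the labels' sample numbers. FPKM gives no depth, so no counting error could be set beside a value.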
